A study of Drosophila melanogaster with 28 samples.

Results

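RNA of Drosophila melanogaster embryos aged 0 to 2 h was compared with RNA of the carcass, the body of females from which the ovaries had been removed, with 2 libraries of each. All genes whose name stands on a single line of the deposited gene tables were taken, 13892 of 14147 lines, and the 11488 of them that reached an FPKM of 1 in at least 2 of the 8 libraries with gene values were tested. FPKM gives the sequenced fragments of a gene relative to its transcript length and to the mapped fragments of the library. The 4 libraries belong to a series of 28 samples on genes of the germline piRNA pathway, and the other 4 libraries with gene values, 2 of ovary and 2 of the OSS cell line, serve here to estimate the spread. Per the labels, both groups came from flies raised at 25 °C and given yeast paste, and from each 5 µg of TRIzol-extracted total RNA was freed of ribosomal RNA with a Ribo-Zero Gold kit made for human, mouse and rat before ScriptSeq V2 libraries were made. The labels give no strain, genotype, age of the females or mating state, and do not say whether replicates came from separate collections, so p-values measure only the spread between these libraries, which may be technical.

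The egg of the fly is loaded with RNA by the nurse cells of the ovary, and the embryo lives on this store while its nuclei divide in rapid synchrony within 1 shared cytoplasm. Transcription from the embryo's own genome starts with a small set of genes before cell membranes form around the nuclei, and many maternal RNAs are then destroyed. The carcass holds the differentiated tissues of the adult, among them flight muscle, fat body, gut, renal tubules, epidermis, blood cells and nervous system, and its fat body makes the yolk proteins that the ovary takes up.

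The libraries matched their labels on markers of both groups, with limits. The summed FPKM of 12 embryo markers was 1740 and 1699 in the embryo libraries and 103 and 123 in the carcass libraries. Of the 12, 7 reached 1 FPKM in each embryo library, but 7 and 8 also did so in carcass replicates 1 and 2. The sums thus separated the groups and the counts did not. In embryo smg alone was at 919 and 899 FPKM, while nos and pgc were lower in embryo than in carcass as deposited. The markers ftz, eve, sna, nullo and bnk, which the embryo transcribes itself, stayed under 1 FPKM in both embryo libraries. Markers of muscle summed to 2.29 and 12.4 FPKM in embryo against 5491 and 4226 in carcass, those of eye and neuron to 1.20 and 2.24 against 1401 and 1754, and those of fat body to 2.38 and 4.39 against 6640 and 8643. RNAs known from the ovary were present in the carcass. All 4 egg markers (osk, vas, bcd, nos) were above 1 FPKM there, at sums of 44.4 and 51.8 against 384 and 391 in embryo. All 8 eggshell and follicle markers were present at sums of 516 and 397. Of these, Fas3, an adhesion gene of epithelia, was at 64.1 and 58.8 FPKM in carcass. Whether these RNAs came from ovarian tissue was not tested, nor was their part in the differences given here. Markers of later embryos summed to 7.51 and 9.0 FPKM in embryo and to 45.9 and 58.2 in carcass. The sources used here state no read totals, and the depth behind each value is therefore unknown.

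Between the 0 to 2 h embryo and the carcass, most genes differed, and their direction depended on how the libraries were scaled. With values as deposited, 2719 genes were higher in embryo and 6210 lower, which is 23.7% and 54.1% of the genes tested, or 77.7% together. After quantile normalization, which gives every library the same distribution of values, 4265 genes (37.1%) were higher and 3661 (31.9%) lower, or 69.0% together. Median-ratio scaling, which corrects each library by 1 factor, gave 27.5% higher and 51.3% lower, or 78.8% together. The share of called genes that were higher was 30.5% as deposited, 34.9% after median-ratio scaling and 53.8% after quantile normalization. The median log2 difference of all tested genes was -1.17 as deposited, and the quantile and median-ratio scalings raised it by 1.32 and 0.17. The differences are on the scale log2(FPKM + 1), embryo minus carcass, which understates changes of genes at low FPKM, and a gene is called where its adjusted p in limma is under 0.05. In all 8929 genes called as deposited, both embryo libraries lay on one side of every carcass library with a number. This was so for 83.5% of all tested genes (26.0% higher and 57.5% lower in embryo). For 292 tested genes only 1 carcass library held a number.

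The 2 scalings disagreed mainly on genes that were lower as deposited. Of the 6210, 3641 stayed lower after quantile normalization, 2041 were no longer called and 528 were called higher. Of the 2719 genes higher as deposited, 2683 stayed higher, 36 lost the call and none turned (0 genes). Under all 3 scalings 2683 genes were higher and 3575 lower. More genes were low in the embryo libraries: the median FPKM of the tested genes was 1.89 and 2.70 in embryo and 13.4 and 16.6 in carcass, and 3219 and 2052 of them were listed at 0 in the embryo libraries against 949 and 329 in the carcass libraries. At the top, 1240 and 1228 genes reached 100 FPKM in embryo and 910 and 1037 in carcass. Quantile normalization brought the medians to between 13 and 14.9. A value of 0 may also be a failed estimate, since genes that every cell uses, such as SdhC (succinate dehydrogenase subunit C), were listed at 0 in both embryo libraries, so such genes are called listed at 0 here and get no fold. In bulk RNA, fewer cells of a type and less RNA per cell cannot be told apart.

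**Figure D1:**
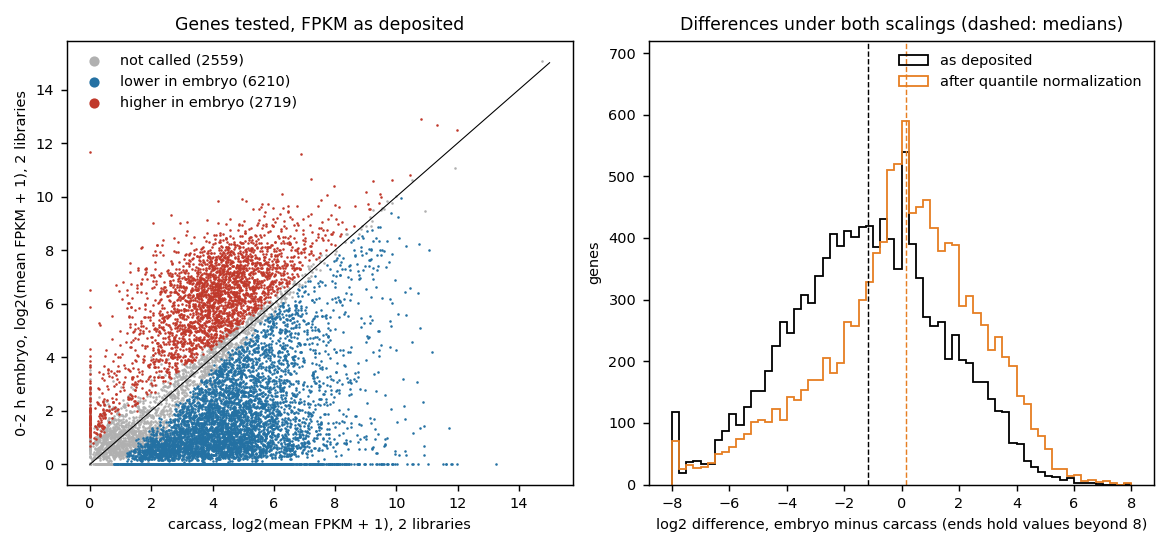
Left, mean level of each tested gene in 2 embryo libraries against that in 2 carcass libraries, both as log2(mean FPKM + 1), coloured by call as deposited. Right, histogram of the log2 differences, embryo minus carcass, of the same genes under both scalings. The median of the differences moved from -1.17 as deposited to 0.15 after quantile normalization.

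The share of genes higher in embryo rose with transcript length up to 6000 nt, while the share lower did not move with it. As deposited, the share lower lay between 51.8% and 56.5% in every length class. Among 342 genes whose longest transcript is under 500 nt, 4.97% were higher in embryo as deposited, and 56.7% were listed at 0 in both embryo libraries. Among 2350 genes with transcripts of 3000 to 6000 nt, 33.7% were higher and 3.32% were listed at 0 in both. The median difference of these classes was -1.93 and -0.84 as deposited and -0.99 and 0.66 after quantile normalization. In the classes from 500 to 3000 nt the median lay between -1.25 and -1.19 as deposited, and from 6000 nt on it was -1.12. Lengths come from the BDGP6.54 annotation, matched by name for 11461 genes. The part of length in the differences of single gene groups was not tested.

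Throughout, paired values are replicates 1 and 2 in FPKM, a difference is embryo minus carcass on the log2(FPKM + 1) scale, adjusted p comes from limma with Benjamini-Hochberg adjustment over all 11488 genes, and a gene called higher or lower without a printed p passed the 0.05 threshold as deposited. Counts of called members should be read against the background of 23.7% higher and 54.1% lower as deposited, and 37.1% and 31.9% after quantile normalization. Genes could pass the filter through any 2 of the 8 libraries. Members listed at 0 in both embryo libraries passed it through other libraries alone. Such members could not come out higher in embryo as deposited, so their direction is no separate result.

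Genes of the sarcomere, the contractile unit of muscle, were nearly all lower in embryo. Of 31 tested, 29 were lower and 1 was higher as deposited, and 29 were lower and 2 higher after quantile normalization. Their median difference was -7.64 as deposited, -7.48 over the 25 members not listed at 0 in embryo, and -6.37 after quantile normalization. Mf (myofilin, of the thick filament) was at 0.565 and 0 FPKM in embryo and 1042 and 1493 in carcass (log2 difference -9.96, SE 0.35, adjusted p = 5.17e-07). Act88F, the actin of flight muscle, was at 0 and 0.566 FPKM in embryo and 1339 and 828 in carcass (log2 difference -9.72, SE 0.35, adjusted p = 5.82e-07). Mhc (myosin heavy chain) was at 0.414 and 0.866 FPKM in embryo and 900.0 and 685 in carcass (log2 difference -8.92, SE 0.22, adjusted p = 1.64e-07). All 3 genes were under 1 FPKM in both embryo libraries and above 600 in both carcass libraries. Mlc1, a myosin light chain gene, was listed at 0 in both embryo libraries and was at 1629 and 1321 FPKM in carcass. The exceptions also work outside muscle. Cam (calmodulin, the general calcium sensor) was at 848 and 774 FPKM in embryo and 368 and 427 in carcass and was higher in embryo (log2 difference 1.03, SE 0.10, adjusted p = 4.26e-05). Tm1 (tropomyosin 1) was at 758 and 746 FPKM in embryo and 842 and 691 in carcass, its groups overlapped, and it was called only after quantile normalization, at 0.67 against -0.02 as deposited.

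**Figure D2:**
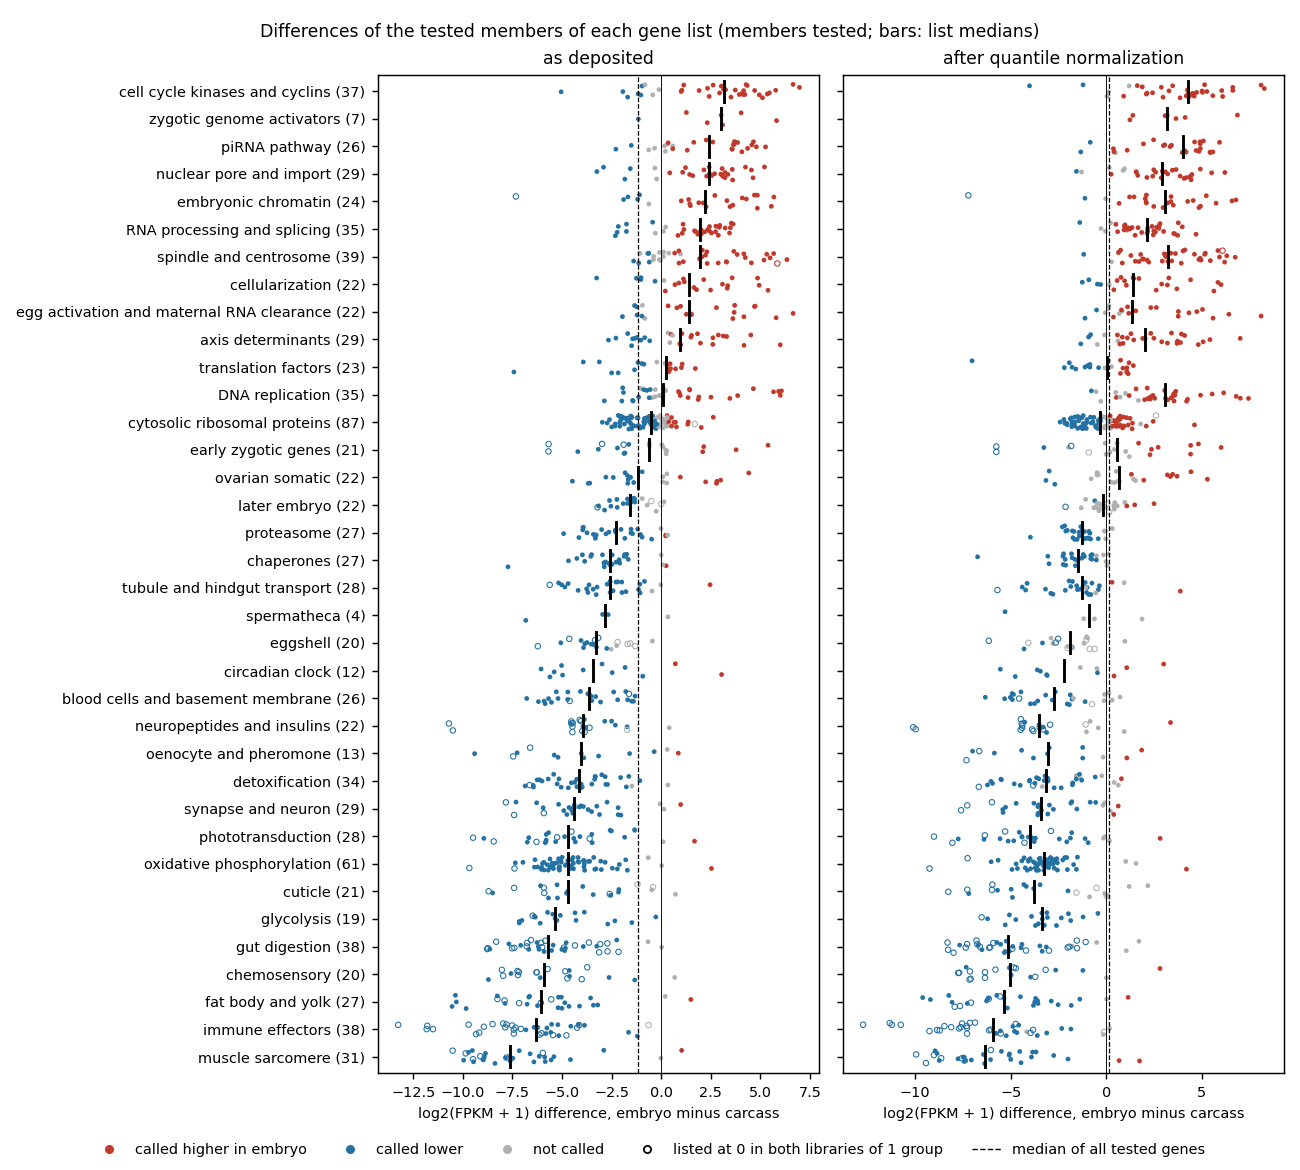
Log2(FPKM + 1) difference, embryo minus carcass, of every tested member of each gene list (number tested in parentheses), as deposited on the left and after quantile normalization on the right, with bars at the list medians. The medians of the cell cycle, piRNA, nuclear pore and splicing lists lay above 0 and those of the tissue and metabolic lists below 0 under both scalings, while the early zygotic and ovarian somatic medians changed sign, from -0.61 to 0.56 and from -1.17 to 0.64.

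Genes of vision and of nerve cells formed a further carcass group. Of 28 phototransduction genes, 25 were lower and 1 higher as deposited, and 24 and 1 after quantile normalization, with a median of -4.70 as deposited (-4.37 over the 22 not at 0). ninaE, the rhodopsin of the outer photoreceptors, was listed at 0 in both embryo libraries and was at 625 and 822 FPKM in carcass. Arr2 (arrestin 2, which switches rhodopsin off) was at 0.667 and 0 FPKM in embryo and 574 and 705 in carcass (log2 difference -8.95, SE 0.35, adjusted p = 7.69e-07). trp, the light-gated channel gene, was at 0 and 0.592 FPKM in embryo and 126 and 145 in carcass (log2 difference -6.75). These 3 genes had next to no signal in embryo and over 100 FPKM in each carcass library. inaE, a lipase gene that also acts outside the eye, was the member higher in embryo, at 37.4 and 36.7 FPKM in embryo and 9.94 and 11.9 in carcass (log2 difference 1.68, SE 0.14, adjusted p = 2.01e-05). Of 29 synapse and neuron genes, 26 were lower and 1 higher as deposited, and 24 and 2 after quantile normalization. Snap25, of synaptic vesicle fusion, was at 0.450 and 0.782 FPKM in embryo and 119.7 and 129 in carcass (log2 difference -6.28, SE 0.23, adjusted p = 6.07e-07). elav, an RNA-binding protein gene used as a marker of all neurons, was at 0.367 and 1.27 FPKM in embryo and 27.2 and 32.7 in carcass (log2 difference -4.13). Syx1A (syntaxin 1A), which serves membrane fusion in the early embryo as well as at synapses, was the member higher in embryo, at 167 and 156 FPKM in embryo and 77.8 and 85.4 in carcass (log2 difference 0.98, SE 0.09, adjusted p = 5.07e-05).

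Most listed genes of smell, peptide signals and the clock were lower as well. Of 20 chemosensory genes, most of them odorant-binding protein genes, 19 were lower as deposited and 18 after quantile normalization. Of the 20, 12 were listed at 0 in both embryo libraries. The sensory receptor families, taken by name, were mostly not called as deposited. Of 16 tested Or genes 1 was higher and 4 lower, of 28 Gr genes 1 and 1, and of 21 Ir genes 1 and 5. After quantile normalization these counts were 5 and 3, 8 and 1, and 5 and 0. Pbprp2 (Obp19d in RefSeq), an odorant-binding protein gene, was at 0.989 and 0 FPKM in embryo and 536 and 652 in carcass (log2 difference -8.71, SE 0.64, adjusted p = 1.32e-05). Gr64f, a sugar receptor gene, was at 1.48 and 1.28 FPKM in embryo and 0 and 1.21 in carcass. It was not called as deposited, at 0.68 (adjusted p = 0.186), but was called higher after quantile normalization, at 2.81, after median-ratio scaling, at 1.11, and as deposited without carcass replicate 2, at 1.25 (adjusted p = 0.014). Of 22 neuropeptide and insulin genes, 20 were lower and 0 higher as deposited, and 16 and 1 after quantile normalization. Without carcass replicate 2, 1 was higher as deposited. Nplp2, a peptide precursor gene, was at 1499.8 and 1861 FPKM in carcass and Ilp2, an insulin-like peptide gene, at 15.4 and 29.3, both listed at 0 in both embryo libraries. Of 12 clock genes, 10 were lower and 2 higher as deposited, and 7 and 3 after quantile normalization. tim (timeless, a core clock repressor) was at 1.03 and 2.03 FPKM in embryo and 91.6 and 117 in carcass (log2 difference -5.40, SE 0.26, adjusted p = 1.68e-06). The higher members were kinase genes that act outside the clock too. dco (doubletime) was at 313 and 314 FPKM in embryo and 35.8 and 38.3 in carcass (log2 difference 3.05, SE 0.08, adjusted p = 2.13e-07), and sgg (shaggy, of Wnt signalling) was at 127 and 116 FPKM in embryo and 71.7 and 75.8 in carcass (log2 difference 0.71).

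Genes of the fat body, the fly's liver and fat store, included the 3 largest differences in favour of carcass among genes not listed at 0 in a whole group. These were the yolk protein genes. Yp2 was at 0 and 0.574 FPKM in embryo and 1623 and 2167 in carcass (log2 difference -10.55, SE 0.36, adjusted p = 4.70e-07), Yp1 at 1.96 and 1.13 FPKM in embryo and 2929.6 and 3816 in carcass (log2 difference -10.38) and Yp3 at 0 and 1.20 FPKM in embryo and 1676 and 2185 in carcass (log2 difference -10.33). Each was near 0 in embryo and among the highest RNAs of both carcass libraries, and Yp1 was among the 10 most abundant RNAs of the carcass. Over the list of 27, 25 were lower and 1 higher under both scalings, with a median of -6.07 as deposited (-5.19 over the 22 not at 0). Adh (alcohol dehydrogenase) was at 3.43 and 0 FPKM in embryo and 1802 and 2055 in carcass (log2 difference -9.84, SE 0.63, adjusted p = 6.40e-06). Rfabg (apolpp, the lipid carrier of the blood) was at 0.975 and 1.46 FPKM in embryo and 666 and 689 in carcass (log2 difference -8.27). The larval serum protein gene Lsp1gamma and its receptor gene Fbp1 differed within the carcass, at 105 and 21.3 and at 100.1 and 19.2 FPKM in replicates 1 and 2. bmm (brummer, a lipase that frees stored fat) was the member higher in embryo, at 202 and 175 FPKM in embryo and 61.1 and 71.7 in carcass (log2 difference 1.49, SE 0.12, adjusted p = 2.05e-05). Lsd-2, a coat gene of lipid droplets, was at 182 and 172 FPKM in embryo and 136 and 174 in carcass with overlapping groups and was not called as deposited, but was called higher after median-ratio scaling, at 0.62, and as deposited without carcass replicate 2, at 0.38 (adjusted p = 0.0036).

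Gut and tubule genes differed in degree. Of 38 digestive genes, 36 were lower and none (0) higher as deposited, 34 were lower after quantile normalization, and 19 were listed at 0 in both embryo libraries. Jon65Aiv, a serine protease gene of the gut, was at 0 and 1.09 FPKM in embryo and 475 and 701 in carcass (log2 difference -8.64, SE 0.38, adjusted p = 1.21e-06). alphaTry (alpha-trypsin) was listed at 0 in embryo and was at 383 and 473 FPKM in carcass. Of 28 genes of the Malpighian tubules and hindgut, which filter and reabsorb, 25 were lower and 1 higher as deposited, and 23 and 2 after quantile normalization. Their median was -2.58 as deposited and -1.29 after quantile normalization, against -5.68 and -5.16 for the digestive genes. Uro (urate oxidase, of the tubule) was at 0 and 2.19 FPKM in embryo and 47.3 and 68.9 in carcass (log2 difference -5.02, SE 0.56, adjusted p = 1.22e-04). Subunit genes of the V-ATPase, a proton pump of all cells, moved unequally. Vha68-1 was at 0.365 and 0.951 FPKM in embryo and 54.1 and 62.2 in carcass (log2 difference -5.18, SE 0.26, adjusted p = 1.91e-06), whereas Vha26 was at 331 and 303 FPKM in embryo and 309 and 336 in carcass with overlapping groups, and was not called as deposited, at -0.03, but was called higher after quantile normalization, at 0.30, and after median-ratio scaling, at 0.40. mal (maroon-like, of molybdenum cofactor) was the member higher in embryo, at 40.2 and 46.0 FPKM in embryo and 6.63 and 7.31 in carcass (log2 difference 2.47).

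Most listed cuticle, surface lipid and detoxification genes were lower too. Of 21 cuticle genes tested, 17 were lower and 0 higher as deposited, and 13 were lower after quantile normalization. Without embryo replicate 1, 1 was higher as deposited. The cuticle protein families taken by name were called lower less often. Of 43 tested genes named Cpr with a number, 26 were lower and 1 higher as deposited, and 16 and 3 after quantile normalization. Of 8 tested Twdl genes, 0 were lower and 1 higher as deposited, and 0 and 2 after quantile normalization. Acp65Aa, an adult cuticle protein gene, was at 0 and 1.87 FPKM in embryo and 809 and 465 in carcass (log2 difference -8.50, SE 0.57, adjusted p = 8.27e-06). Of 13 genes of oenocytes and pheromones, 11 were lower and 1 higher as deposited, and 10 and 2 after quantile normalization. Cyp4g1, which makes the waterproofing hydrocarbons of the body surface, was at 1.29 and 1.87 FPKM in embryo and 1772 and 1717 in carcass (log2 difference -9.41, SE 0.51, adjusted p = 2.83e-06). Cpr, the reductase that serves cytochrome P450 enzymes in all tissues, was the member higher in embryo, at 353 and 342 FPKM in embryo and 189 and 192 in carcass (log2 difference 0.86, SE 0.09, adjusted p = 8.28e-05). Of 34 detoxification genes, 32 were lower and 0 higher as deposited, and 27 and 1 after quantile normalization. Cyp6d5, a cytochrome P450 gene, was at 0.621 and 1.08 FPKM in embryo and 191 and 235 in carcass (log2 difference -6.86). GstS1, a glutathione transferase gene abundant in flight muscle, kept a high level in embryo, at 323 and 319 FPKM in embryo and 839.6 and 546 in carcass (log2 difference -1.08, SE 0.18, adjusted p = 0.00119), and was not called after median-ratio scaling.

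Immune and blood cell genes were mostly lower in embryo. Of 38 immune effector genes, 37 were lower and 0 higher as deposited, 34 were lower after quantile normalization, and 24 were listed at 0 in both embryo libraries. Those 24 passed the filter through other libraries alone. Over the 14 members not listed at 0 in a whole group, the median was -5.37 as deposited. The list summed to 26.2 and 28.8 FPKM in embryo and to 29059.6 and 24098 in carcass. IM14 (Dso2 in RefSeq), a gene of a small secreted peptide induced by infection, was listed at 0 in embryo and was at 10020.4 and 9681 FPKM in carcass, where IM2 stood at 3463 and 3821 and IM3 at 3575 and 3536. These 3 were among the 10 most abundant RNAs of the carcass. Several antimicrobial peptide genes differed within the carcass, not all in the same direction. CecB (a cecropin) was at 384 and 46.6 FPKM in carcass replicates 1 and 2, AttB (an attacin) at 415 and 63.2 and Dpt (diptericin) at 459 and 118, all higher in replicate 1 and listed at 0 in both embryo libraries. Def (defensin), also listed at 0 in embryo, was higher in replicate 2, at 15 and 46.1 FPKM. CecC, another cecropin, was at 0 and 4.21 FPKM in embryo and 457 and 145 in carcass (log2 difference -6.82, SE 1.37, adjusted p = 0.00273). Genes of the IM, cecropin and attacin families are alike in sequence, and the sources used here do not say how reads were divided among them. All 26 genes of blood cells and basement membrane were lower as deposited, and 19 after quantile normalization. Cg25C (collagen IV) was at 0.159 and 0.621 FPKM in embryo and 99.9 and 98.5 in carcass (log2 difference -6.19, SE 0.22, adjusted p = 5.72e-07), and the blood cell marker Hml (hemolectin) was at 0.309 and 0.939 FPKM in embryo and 33.2 and 49.7 in carcass (log2 difference -4.71). Of 9 genes of the spermatheca, the sperm store, 4 passed the filter, and 3 of these were lower as deposited and 1 after quantile normalization.

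Genes of energy metabolism were mostly lower in embryo. Of 61 genes of oxidative phosphorylation, which makes ATP in mitochondria, 58 were lower and 1 higher under both scalings, with a median of -4.71 as deposited and -3.26 after quantile normalization. They summed to 1896 and 1693 FPKM in embryo and 29361 and 30130.1 in carcass. ATPsyn-beta, the catalytic subunit of ATP synthase, was at 23.4 and 22.7 FPKM in embryo and 1529 and 1384 in carcass (log2 difference -5.92, SE 0.08, adjusted p = 5.43e-08). CoVa, of cytochrome c oxidase, was at 53.9 and 40.2 FPKM in embryo and 1261 and 1309.8 in carcass (log2 difference -4.76). SdhC, a membrane anchor of succinate dehydrogenase, was listed at 0 in embryo and was at 159 and 177 FPKM in carcass, while SdhA, the catalytic subunit of the same complex, was at 9.12 and 10.8 FPKM in embryo and 253 and 268 in carcass (log2 difference -4.58). The called member that was lower by the least was ND23, of complex I, at 76.2 and 67.4 FPKM in embryo and 222 and 251 in carcass (log2 difference -1.71, SE 0.11, adjusted p = 6.02e-06). Ant2, a carrier of ADP and ATP across the mitochondrial membrane, was the member higher in embryo, at 16.9 and 45.6 FPKM in embryo and 2.35 and 6.41 in carcass (log2 difference 2.53, SE 0.51, adjusted p = 0.00284). All 19 genes of glycolysis and sugar use were lower as deposited and after quantile normalization, with medians of -5.35 and -3.35, and 18 after median-ratio scaling. Gapdh1 was at 5.03 and 5.07 FPKM in embryo and 753 and 828 in carcass (log2 difference -7.03, SE 0.10, adjusted p = 5.43e-08). Ald (aldolase) was at 196 and 213 FPKM in embryo and 528 and 618 in carcass (log2 difference -1.48, SE 0.09, adjusted p = 6.02e-06). The embryo thus kept far more Ald RNA than Gapdh1 RNA, while the carcass had somewhat more Gapdh1 RNA.

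**Figure D3:**
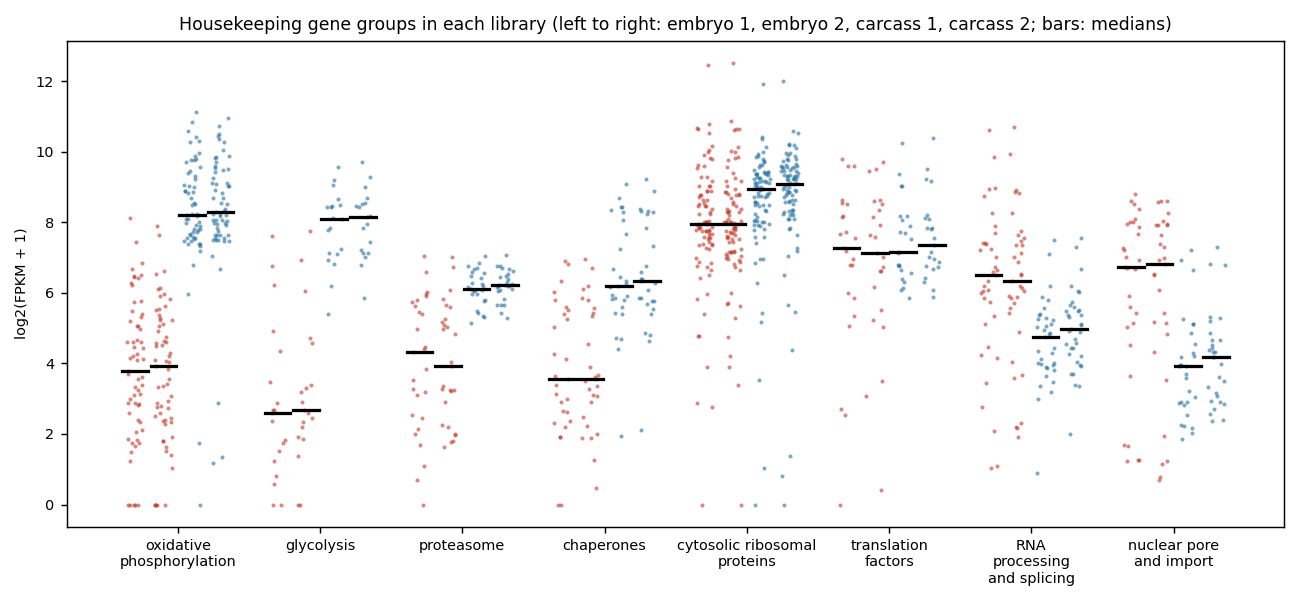
Level of every tested member of 8 housekeeping gene groups in each library as log2(FPKM + 1), with embryo in red, carcass in blue and the median of each library as a bar. Most genes of oxidative phosphorylation, glycolysis, proteasome and chaperones were lower in embryo and most of nuclear pore and splicing higher under both scalings, while ribosomal proteins and translation factors were split, and the translation factors went from 11 higher and 9 lower as deposited to 9 and 10 after quantile normalization.

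Genes that fold and degrade proteins were lower by less. Of 27 proteasome genes, 23 were lower under both scalings and 2 were higher as deposited and 0 after quantile normalization, with medians of -2.30 and -1.27. Rpn1, of the regulatory cap, was at 0.629 and 2.46 FPKM in embryo and 34.0 and 37.7 in carcass (log2 difference -3.96, SE 0.32, adjusted p = 1.95e-05). The higher members are subunits of the catalytic core. Prosbeta2 was at 94.8 and 105 FPKM in embryo and 83.7 and 86.4 in carcass, at 0.23 (SE 0.08, adjusted p = 0.0405), and Prosbeta3 at 131 and 127 FPKM in embryo and 113 and 107 in carcass, at 0.23 (SE 0.07, adjusted p = 0.0164). Prosbeta2 lost its call without carcass replicate 1, at 0.21, or embryo replicate 2, at 0.15, and Prosbeta3 without embryo replicate 1, at 0.21. Of 27 chaperone genes, 24 were lower and 1 higher as deposited, and 22 and 0 after quantile normalization. Hsp83, the fly's HSP90, was at 44.3 and 46.5 FPKM in embryo and 343 and 334 in carcass (log2 difference -2.87, SE 0.06, adjusted p = 1.42e-07). Hsp68, a stress-induced HSP70, was at 0 and 1.38 FPKM in embryo and 342 and 309.9 in carcass (log2 difference -7.73). The higher member Hsc70Cb, an HSP110, was at 111 and 103 FPKM in embryo and 85.7 and 94.6 in carcass (log2 difference 0.25, SE 0.09, adjusted p = 0.0319). It was not called without carcass replicate 1, at 0.18 (adjusted p = 0.088), or without embryo replicate 1, at 0.20 (adjusted p = 0.12).

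Genes of translation did not move as a block. Of 87 cytosolic ribosomal protein genes, 54 were lower and 12 higher as deposited, 43 and 28 after quantile normalization and 37 and 27 after median-ratio scaling, and without carcass replicate 2 47 were lower and 19 higher as deposited. Their median was -0.52 as deposited and -0.31 after quantile normalization. RpLP0, of the ribosomal stalk, was at 26.1 and 38.1 FPKM in embryo and 239 and 269.5 in carcass (log2 difference -2.97, SE 0.16, adjusted p = 3.19e-06). RpS6, the target of S6 kinase, was at 1479.9 and 1608 FPKM in embryo and 557 and 641 in carcass (log2 difference 1.37, SE 0.08, adjusted p = 5.44e-06). Single ribosomal protein genes thus differed in opposite directions within 1 complex. RpL32, often used as a reference gene in flies, was at 778 and 665 FPKM in embryo and 662 and 775 in carcass with overlapping groups, and was not called as deposited, at 0.01, but was called higher after quantile normalization, at 0.70, and after median-ratio scaling, at 0.43. Of 23 translation factor genes, 11 were higher and 9 lower as deposited, and 9 and 10 after quantile normalization. eIF3-S10, of the factor that recruits the small subunit, was at 209 and 239 FPKM in embryo and 67.0 and 67.0 in carcass (log2 difference 1.72, SE 0.09, adjusted p = 2.10e-06). eIF-2beta, of the factor that brings the initiator tRNA, was at 4.79 and 7.48 FPKM in embryo and 107 and 105 in carcass (log2 difference -3.93, SE 0.17, adjusted p = 1.08e-06).

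On the embryo side, genes of the nuclear division cycle led. Of 37 genes of cell cycle control, 28 were higher and 6 lower as deposited, and 32 and 2 after quantile normalization, with medians of 3.15 and 4.28. Without embryo replicate 2, 3 were lower. borr, which guides Aurora B kinase on chromosomes, had the largest difference in favour of embryo among genes not listed at 0 in a whole group, at 518 and 526 FPKM in embryo and 3.30 and 3.05 in carcass (log2 difference 6.97, SE 0.09, adjusted p = 5.43e-08). Incenp, of the same complex, was at 226 and 229.5 FPKM in embryo and 3.16 and 3.20 in carcass (log2 difference 5.77). The mitotic cyclin gene CycB was at 962 and 969.7 FPKM in embryo and 31.2 and 29.4 in carcass (log2 difference 4.95), and CycB3 at 609 and 645 FPKM in embryo and 5.33 and 5.16 in carcass (log2 difference 6.65, SE 0.09, adjusted p = 5.43e-08). The 4 genes were above 200 FPKM in both embryo libraries, and CycB alone was above 10 in carcass. twe, a Cdc25 phosphatase of meiosis and the first divisions, was at 321 and 314 FPKM in embryo and 6.15 and 6.39 in carcass (log2 difference 5.45). stg, the Cdc25 of later divisions, was at 116 and 100.4 FPKM in embryo and 7.83 and 9.24 in carcass (log2 difference 3.52). fzy, the fly Cdc20, which starts cyclin destruction, was at 241 and 239.7 FPKM in embryo and 5.93 and 6.09 in carcass (log2 difference 5.11).

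A few cell cycle genes went the other way or depended on the scaling. The 2 small Cks partners of cyclin-dependent kinases split: Cks30A, known for its role in the female germline and the early divisions, was at 46.5 and 40.3 FPKM in embryo and 2.89 and 5.44 in carcass (log2 difference 3.15, SE 0.23, adjusted p = 1.35e-05), and Cks85A at 2.19 and 0 FPKM in embryo and 53.8 and 62.7 in carcass (log2 difference -5.05, SE 0.47, adjusted p = 4.41e-05). endos, which protects mitosis by blocking an opposing phosphatase, was at 23.5 and 18.3 FPKM in embryo and 79.6 and 84.7 in carcass (log2 difference -1.93). cdc2c (Cdk2 in RefSeq) was at 5.33 and 3.84 FPKM in embryo and 7.48 and 14 in carcass and changed direction, from -1.03 (SE 0.27, adjusted p = 0.01) as deposited to 1.62 (SE 0.39, adjusted p = 0.0103) after quantile normalization. As deposited it was not called without embryo replicate 2, at -0.83 (adjusted p = 0.055).

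DNA replication genes were spread over a wide range of levels. Of 35, 16 were higher and 11 lower as deposited, and 28 and 1 after quantile normalization, and their median moved from 0.11 to 3.06. dup, the fly Cdt1, which licenses origins once per cycle, was at 514 and 506 FPKM in embryo and 6.22 and 7.07 in carcass (log2 difference 6.06, SE 0.10, adjusted p = 8.16e-08), and geminin, its inhibitor, at 893 and 926 FPKM in embryo and 14.4 and 20.0 in carcass (log2 difference 5.66). The MCM helicase is a ring with 1 copy of each of 6 subunits, and the RNA levels of its genes differed within the embryo. Mcm7 was at 288 and 297 FPKM in embryo and 4.11 and 3.07 in carcass (log2 difference 6.01, SE 0.12, adjusted p = 1.42e-07) and Mcm6 at 189.9 and 184 FPKM in embryo and 6.09 and 6.94 in carcass (log2 difference 4.65). Lower levels were measured for dpa, the fly Mcm4, at 16.1 and 18.5 FPKM in embryo and 5.82 and 5.77 in carcass (log2 difference 1.43), for Mcm5 at 15.7 and 15.7 FPKM in embryo and 6.14 and 4.35 in carcass (log2 difference 1.44) and for Mcm2 at 7.26 and 10.1 FPKM in embryo and 3.49 and 4.78 in carcass (log2 difference 0.91, SE 0.20, adjusted p = 0.00373). Mcm3 was at 1.05 and 1.52 FPKM in embryo and 1.58 and 1.29 in carcass, with overlapping groups, at -0.10 (SE 0.19, adjusted p = 0.664) as deposited and 2.31 (SE 0.20, adjusted p = 8.67e-05) after quantile normalization. Mcm7 and Mcm6 were thus above 100 FPKM in embryo and the other 4 genes below 20.

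Levels differed among other replication genes too. Mcm10, which helps to start forks, was at 249.7 and 251 FPKM in embryo and 4.72 and 2.02 in carcass. Orc2, of the origin recognition complex, was at 1.52 and 0.439 FPKM in embryo and 1.83 and 1.45 in carcass. mus209 (PCNA, the sliding clamp) was at 8.65 and 8.41 FPKM in embryo and 9.49 and 12.2 in carcass, at -0.30 (SE 0.13, adjusted p = 0.073) as deposited and 2.01 (SE 0.11, adjusted p = 1.33e-05) after quantile normalization. Without carcass replicate 1 it was lower as deposited, at -0.47 (adjusted p = 0.0037). RpA-70, of the single-strand binding complex, was lower under both scalings, at 2.31 and 4.02 FPKM in embryo and 27.8 and 29.7 in carcass (log2 difference -2.87, SE 0.19, adjusted p = 7.62e-06) and at -0.78 after quantile normalization. RPA2, of the same complex, was at 5.88 and 5.11 FPKM in embryo and 8.90 and 8.19 in carcass and changed direction, from -0.56 (SE 0.12, adjusted p = 0.00407) to 2.30 (SE 0.17, adjusted p = 3.75e-05), and was not called after median-ratio scaling, at -0.20.

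Spindle and centrosome genes were mostly higher. Of 39, 24 were higher and 5 lower as deposited, and 36 and 1 after quantile normalization, with medians of 1.93 and 3.22. Without embryo replicate 1, 3 were lower. Spc25, of the Ndc80 complex that holds microtubules at kinetochores, was at 188 and 175 FPKM in embryo and 0.491 and 2.40 in carcass (log2 difference 6.34, SE 0.34, adjusted p = 2.71e-06), and Nuf2, of the same complex, at 93.0 and 111 FPKM in embryo and 1.15 and 2.70 in carcass (log2 difference 5.18). Ndc80 itself was at 0.466 and 0.809 FPKM in embryo and 0.652 and 1.72 in carcass with overlapping groups, at -0.38 (SE 0.28, adjusted p = 0.257), and was called lower without carcass replicate 1, at -0.74 (adjusted p = 0.023), and higher after quantile normalization, at 1.29. Members of 1 complex thus differed by more than 100 FPKM in embryo. Klp61F, the kinesin that keeps spindle poles apart, was at 143 and 158 FPKM in embryo and 2.00 and 1.95 in carcass (log2 difference 5.67, SE 0.11, adjusted p = 1.42e-07). msd1, of the augmin complex that seeds spindle microtubules, was at 52.5 and 61.6 FPKM in embryo and listed at 0 in both carcass libraries. Cenp-C, of the inner centromere, was at 49.7 and 44.2 FPKM in embryo and 4.13 and 3.61 in carcass (log2 difference 3.30). cid, the centromeric histone that Cenp-C binds, was at 1.08 and 0.934 FPKM in embryo and 1.51 and 1.76 in carcass, slightly lower in both embryo libraries and not called, at -0.39 (SE 0.21, adjusted p = 0.12), and was called higher after quantile normalization, at 1.8. gammaTub37C, the maternal gamma-tubulin, was at 1.36 and 1.77 FPKM in embryo and 3.10 and 3.05 in carcass and changed direction, from -0.67 (SE 0.23, adjusted p = 0.0287) to 2.22 (SE 0.26, adjusted p = 3.61e-04), and it was not called after median-ratio scaling, at -0.43, or as deposited without embryo replicate 1, at -0.56 (adjusted p = 0.076).

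**Figure D4:**
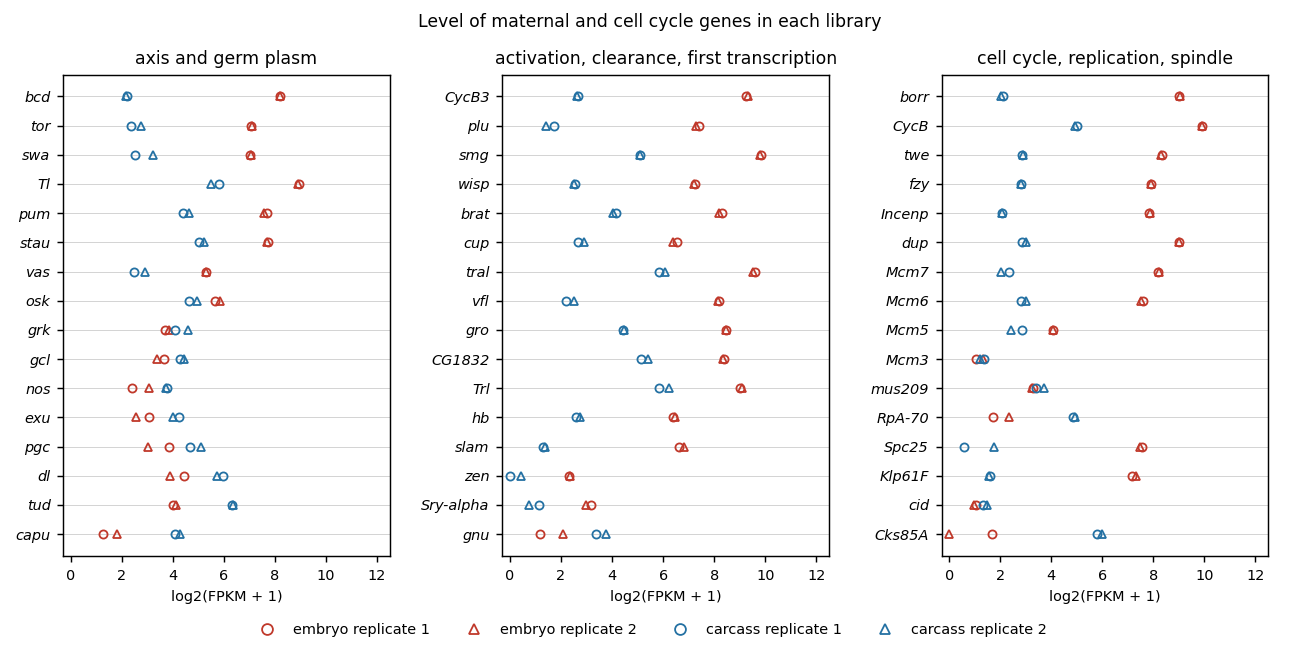
Level of 48 maternal, early zygotic and cell cycle genes in each of the 4 libraries as log2(FPKM + 1), circles for replicate 1 and triangles for replicate 2. bcd, CycB3, borr and dup lay far higher in both embryo libraries, Mcm3 and cid were under 2 FPKM in all 4 libraries, and grk, gcl and nos, which were lower in embryo as deposited, were called higher after quantile normalization.

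Chromatin and nuclear envelope genes went with the division cycle. Of 24 chromatin genes, 18 were higher and 5 lower as deposited, and 21 and 2 after quantile normalization. glu, a condensin subunit, was at 433 and 413 FPKM in embryo and 7.97 and 8.07 in carcass (log2 difference 5.55, SE 0.08, adjusted p = 6.17e-08), and Top2 (topoisomerase II) at 512 and 512 FPKM in embryo and 14.5 and 19.3 in carcass (log2 difference 4.85). Df31, a histone-binding protein gene, was among the 10 most abundant RNAs of the embryo, at 3002 and 3225 FPKM in embryo and 118 and 119 in carcass (log2 difference 4.70, SE 0.06, adjusted p = 5.43e-08). HmgD, a chromatin protein gene, was at 251 and 255 FPKM in embryo and 81.9 and 105 in carcass (log2 difference 1.44), while HmgZ, its neighbour and relative, was listed at 0 in embryo and was at 142 and 181 FPKM in carcass. CAF-1, which loads histones on new DNA, had subunits that differed. Caf1-180 was at 247 and 239 FPKM in embryo and 4.89 and 2.83 in carcass (log2 difference 5.68, SE 0.19, adjusted p = 4.92e-07), and Caf1-105 was at 1.21 and 2.80 FPKM in embryo and 4.91 and 5.45 in carcass and changed direction, from -1.09 (SE 0.26, adjusted p = 0.00623) to 2.08 (SE 0.23, adjusted p = 3.00e-04). Of 29 genes of nuclear pores and import, 23 were higher and 4 lower as deposited, and 24 and 1 after quantile normalization. LBR (lamin B receptor) was at 246 and 247 FPKM in embryo and 4.81 and 6.70 in carcass (log2 difference 5.21, SE 0.14, adjusted p = 2.32e-07). Nup107, of the pore scaffold, was at 1.42 and 0.616 FPKM in embryo and 3.69 and 6.24 in carcass (log2 difference -1.56, SE 0.28, adjusted p = 0.00164) and was not called after quantile normalization.

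RNA processing genes were higher in embryo in similar number. Of 35, 26 were higher and 6 lower as deposited, and 30 and 1 after quantile normalization, with medians of 1.94 and 2.14. sqd, an hnRNP that helps to place maternal RNAs, was at 1564 and 1652 FPKM in embryo and 136 and 157 in carcass (log2 difference 3.45, SE 0.08, adjusted p = 1.53e-07), among the 10 most abundant RNAs of the embryo. Hel25E, of splicing and RNA export, was at 427 and 457 FPKM in embryo and 29.6 and 40.7 in carcass (log2 difference 3.63). SmG, of the spliceosome core, was lower, at 17.7 and 15.4 FPKM in embryo and 72.1 and 102 in carcass (log2 difference -2.31, SE 0.16, adjusted p = 1.08e-05).

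Genes of the piRNA pathway, which silences transposons in the germline through small RNAs, were mostly higher in embryo. Of 26 tested, 18 were higher and 2 lower as deposited, and 23 and 2 after quantile normalization, with medians of 2.43 and 4.04. AGO3, a PIWI protein gene of the amplification cycle, was at 251 and 239 FPKM in embryo and 10.9 and 11.0 in carcass (log2 difference 4.36, SE 0.11, adjusted p = 1.88e-07). Its partner aub was at 47.5 and 40.9 FPKM in embryo and 1.45 and 4.31 in carcass (log2 difference 3.64, SE 0.35, adjusted p = 4.86e-05). piwi, the nuclear member of the family, was at 71.2 and 66.7 FPKM in embryo and 4.08 and 5.89 in carcass (log2 difference 3.56). mael, which acts in transcriptional silencing, was at 134 and 134 FPKM in embryo and 1.14 and 4.78 in carcass (log2 difference 5.26), and zuc, a nuclease that makes piRNA ends, at 66.6 and 61.1 FPKM in embryo and 1.10 and 1.58 in carcass (log2 difference 4.80, SE 0.15, adjusted p = 3.88e-07). For these 5 genes the lowest embryo value was above 40 FPKM and the highest carcass value about 11. armi, a helicase of piRNA production, was at 6.69 and 6.60 FPKM in embryo and 4.63 and 6.75 in carcass with overlapping groups, at 0.21 (SE 0.16, adjusted p = 0.277) as deposited and 3.06 (SE 0.12, adjusted p = 3.10e-06) after quantile normalization, and was also called higher after median-ratio scaling, at 0.60, and as deposited without carcass replicate 2, at 0.44 (adjusted p = 0.0041). tud, a scaffold of the germ plasm, was lower under both scalings, at 15.2 and 16.2 FPKM in embryo and 79.1 and 81.5 in carcass (log2 difference -2.29, SE 0.11, adjusted p = 1.6e-06) and at -1.34 after quantile normalization.

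Maternal patterning RNAs ranged from strong to weak. bcd, which sets up the head, was at 291 and 289 FPKM in embryo and 3.60 and 3.47 in carcass (log2 difference 6.0, SE 0.13, adjusted p = 1.45e-07). tor, the receptor of the terminal system, was at 132 and 137 FPKM in embryo and 4.19 and 5.76 in carcass (log2 difference 4.52). Tl (Toll, the receptor of the ventral side) was at 496 and 484 FPKM in embryo and 54.8 and 43.5 in carcass (log2 difference 3.30). These were far higher in both embryo libraries. Over 29 axis and germ plasm genes, 16 were higher and 10 lower as deposited, and 23 and 3 after quantile normalization, with medians of 0.94 and 2.03. osk, which builds the germ plasm, was at 49.9 and 56.4 FPKM in embryo and 23.5 and 29.5 in carcass (log2 difference 0.98, SE 0.15, adjusted p = 6.15e-04). nos, the posterior determinant, was at 4.25 and 7.36 FPKM in embryo and 12.6 and 12.4 in carcass and changed direction, from -1.03 (SE 0.24, adjusted p = 0.00584) as deposited to 1.29 (SE 0.22, adjusted p = 0.00212) after quantile normalization. gcl, needed for germ cell formation, was at 11.7 and 9.42 FPKM in embryo and 18.5 and 20.6 in carcass and went from -0.84 (SE 0.17, adjusted p = 0.0033) to 0.59 (SE 0.14, adjusted p = 0.00891), and was not called after median-ratio scaling, at -0.45. grk, the signal from oocyte to follicle cells, was at 11.8 and 13.3 FPKM in embryo and 16.1 and 22.9 in carcass and went from -0.58 (SE 0.22, adjusted p = 0.045) to 0.71 (SE 0.20, adjusted p = 0.019). It was not called after median-ratio scaling, at -0.19, and as deposited it was not called without carcass replicate 2, at -0.34, without embryo replicate 1, at -0.50, or without embryo replicate 2, at -0.66.

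Several germ plasm and patterning RNAs were low in embryo beside the ovary. pgc, which silences transcription in germ cells, was at 13.4 and 7.25 FPKM in embryo and 24.2 and 33.6 in carcass (log2 difference -1.44, SE 0.28, adjusted p = 0.00227). exu, which helps to place bcd RNA, was at 7.35 and 4.80 FPKM in embryo and 17.9 and 15 in carcass (log2 difference -1.32, SE 0.39, adjusted p = 0.0171), a call that was lost without carcass replicate 1 at -1.20, without carcass replicate 2 at -1.44 and without embryo replicate 2 at -1.06. Neither was called after quantile normalization, and exu was not called after median-ratio scaling, at -0.97. In the ovary libraries pgc stood at 359.9 and 352 FPKM, exu at 229 and 230.1, nos at 244 and 253 and bcd at 69.8 and 71.9, values given side by side without a test. The embryo libraries were below the ovary libraries for pgc, exu and nos and above them for bcd. In carcass, nos, pgc and exu were above the embryo in both libraries. The part of ovarian RNA in the carcass values was not tested.

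Genes of egg activation and of maternal RNA clearance were mostly higher. Of 22, 15 were higher and 5 lower as deposited, and 15 and 2 after quantile normalization. smg, which directs maternal RNA destruction, was at 919 and 899 FPKM in embryo and 32.7 and 33.4 in carcass (log2 difference 4.74, SE 0.07, adjusted p = 6.97e-08). plu, of the kinase complex that drives the first nuclear cycles, was at 167 and 157 FPKM in embryo and 2.27 and 1.63 in carcass (log2 difference 5.80, SE 0.25, adjusted p = 1.06e-06), while gnu, of the same complex, was at 1.24 and 3.24 FPKM in embryo and 9.39 and 12.7 in carcass (log2 difference -1.95, SE 0.39, adjusted p = 0.0025) and was not called after quantile normalization. png, the kinase of the complex, was at 0 and 1.68 FPKM in embryo and 0.861 and 4.35 in carcass with overlapping groups and was not called, at -0.95 (SE 0.60, adjusted p = 0.186). As deposited it was called lower without carcass replicate 1, at -1.71, or embryo replicate 2, at -1.66. wisp, the poly(A) polymerase of the egg, was at 151 and 147 FPKM in embryo and 4.85 and 4.69 in carcass (log2 difference 4.70). brat, a repressor of translation, was at 316 and 292 FPKM in embryo and 16.7 and 15.2 in carcass (log2 difference 4.17).

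Of 7 genes of activators and regulators of the zygotic genome, 6 were higher and 1 lower as deposited, and 7 higher after quantile normalization. vfl (zld in RefSeq), the activator zelda, was at 294 and 282 FPKM in embryo and 3.62 and 4.69 in carcass (log2 difference 5.82, SE 0.13, adjusted p = 1.45e-07). Trl (GAGA factor) was at 519 and 545 FPKM in embryo and 56.3 and 74.0 in carcass (log2 difference 3.02), and CG1832 (Clamp in RefSeq) at 332 and 326 FPKM in embryo and 34.1 and 41.5 in carcass (log2 difference 3.09). gro, the corepressor groucho, was at 355 and 353 FPKM in embryo and 20.3 and 21.1 in carcass (log2 difference 4.03). Med, a Smad of BMP signalling, was at 5.61 and 3.84 FPKM in embryo and 10.2 and 13.2 in carcass and changed direction, from -1.15 (SE 0.22, adjusted p = 0.002) to 1.39 (SE 0.20, adjusted p = 0.00107).

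RNAs that the embryo itself transcribes first were rare in these collections. Of 42 early zygotic genes, 21 passed the filter, and ftz, eve, Kr, sna and twi were among those that did not. Of the 21, 4 were higher and 10 lower as deposited, and 8 and 4 after quantile normalization. The shares as deposited were near the 23.7% higher and 54.1% lower of all tested genes. The share higher after quantile normalization was near their 37.1%. slam, needed for the first cell membranes, was at 98.3 and 111 FPKM in embryo and 1.45 and 1.6 in carcass (log2 difference 5.39, SE 0.18, adjusted p = 4.50e-07). hb, whose RNA the mother also provides, was at 82.3 and 87.4 FPKM in embryo and 4.93 and 5.61 in carcass (log2 difference 3.78). Sry-alpha, of membrane formation, was at 8.02 and 6.96 FPKM in embryo and 1.22 and 0.657 in carcass (log2 difference 2.14, SE 0.24, adjusted p = 1.24e-04), and zen, a homeobox gene of the dorsal side, at 3.91 and 4.03 FPKM in embryo and 0 and 0.356 in carcass (log2 difference 2.09, SE 0.32, adjusted p = 6.85e-04). For these 4, both embryo libraries were above both carcass libraries, and zen and Sry-alpha stayed under 10 FPKM. All 4 were also present in the ovary libraries, values given side by side without a test. There slam was at 36.6 and 36.6 FPKM, hb at 62.5 and 64.0, Sry-alpha at 5.57 and 5.07 and zen at 2.97 and 1.78. Whether the embryo itself made the RNA measured here was not tested. sog, a BMP antagonist gene, was lower, at 0.413 and 0.717 FPKM in embryo and 24.1 and 31.9 in carcass (log2 difference -4.21). Of 22 cellularization genes tested, 16 were higher and 5 lower as deposited, and 17 and 4 after quantile normalization. scra, the anillin of the furrow, was at 184 and 200.4 FPKM in embryo and 5.57 and 5.01 in carcass (log2 difference 4.94, SE 0.10, adjusted p = 1.42e-07), and pnut, a septin, at 431 and 483 FPKM in embryo and 36.3 and 38.2 in carcass (log2 difference 3.58). sdt, of apical polarity, was lower, at 3.34 and 2.73 FPKM in embryo and 37.3 and 37.6 in carcass (log2 difference -3.26). Of 22 genes of later embryos, 0 were higher and 16 lower as deposited, whereas 3 were higher and 2 lower after quantile normalization. These genes too could pass the filter through other libraries alone. Antp, a Hox gene, was at 1.03 and 0.667 FPKM in embryo and 9.60 and 15.7 in carcass (log2 difference -2.86, SE 0.34, adjusted p = 1.61e-04) and was not called after quantile normalization.

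Some related genes split between embryo and carcass, while others were lower in embryo together. Of 6 actin genes, the cytoplasmic Act5C and Act42A were higher in embryo and the 4 muscle actins lower under all 3 scalings. Act5C was at 1167 and 1159.9 FPKM in embryo and 559 and 471 in carcass (log2 difference 1.18, SE 0.08, adjusted p = 9.28e-06), and Act42A at 155 and 129.8 FPKM in embryo and 84.4 and 62.0 in carcass (log2 difference 0.96). Act79B, an actin of tubular muscle, was at 1.35 and 0 FPKM in embryo and 838 and 729.9 in carcass (log2 difference -9.0, SE 0.39, adjusted p = 1.12e-06). Act57B and Act87E, both of body wall muscle, were at 0.586 and 3.18 FPKM in embryo and 369.7 and 365 in carcass (log2 difference -7.16) and at 0 and 2.27 FPKM in embryo and 422 and 409.8 in carcass (log2 difference -7.85). Of 10 tubulins, 1 was higher and 8 lower as deposited, and 3 and 3 after quantile normalization. betaTub56D, the general beta-tubulin, was at 244 and 216 FPKM in embryo and 143 and 138 in carcass (log2 difference 0.70, SE 0.08, adjusted p = 1.15e-04). alphaTub67C, an alpha-tubulin of the egg, was at 0.636 and 2.76 FPKM in embryo and 14 and 9.63 in carcass (log2 difference -2.35, SE 0.40, adjusted p = 0.0011) and stood at 0.01 after quantile normalization, where it was not called. Its level in the ovary libraries was 208 and 208 FPKM. Actins and tubulins are alike in sequence, and the sources used here do not say how reads were divided among them.

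Some ribosomal protein genes have a second copy, and the copies differed. RpS5b, the copy known from the germline, was at 61.4 and 62.2 FPKM in embryo and 10.5 and 19.9 in carcass (log2 difference 2.02, SE 0.25, adjusted p = 2.14e-04), and RpS5a at 115 and 126 FPKM in embryo and 573 and 637 in carcass (log2 difference -2.32, SE 0.08, adjusted p = 5.53e-07). RpL22-like was at 6.37 and 17.4 FPKM in embryo and 1.04 and 0.746 in carcass (log2 difference 2.63, SE 0.43, adjusted p = 9.51e-04), and RpL22 at 192 and 187 FPKM in embryo and 257 and 325 in carcass (log2 difference -0.61, SE 0.12, adjusted p = 0.00206), not called after median-ratio scaling. In both pairs the copy that was scarcer in carcass was higher in embryo and the other lower. RpL7-like, whose yeast relative acts in ribosome assembly, was at 169 and 163 FPKM in embryo and 57.6 and 67.5 in carcass (log2 difference 1.40), and RpL7 at 213 and 181 FPKM in embryo and 524 and 599.6 in carcass (log2 difference -1.51). Over the 21 tested members of such pairs, 5 were higher and 10 lower as deposited, and 9 and 6 after quantile normalization.

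Of 13 tested members of metabolic gene pairs, 1 was higher and 11 lower under all 3 scalings. Ant2 was the higher one, and its neighbour and relative sesB, the main carrier of the adult, was at 275 and 236 FPKM in embryo and 2246 and 1999 in carcass (log2 difference -3.05, SE 0.09, adjusted p = 2.95e-07). Outside that list, Ef1alpha48D and Ef1alpha100E, both translation elongation factor genes, were lower, the first at 285 and 281 FPKM in embryo and 1209.8 and 1347 in carcass (log2 difference -2.17) and the second at 0 and 0.324 FPKM in embryo and 207 and 188 in carcass (log2 difference -7.43). Of 3 thioredoxin genes, dhd, which the egg uses to unpack sperm chromatin, was at 39.0 and 35.3 FPKM in embryo and 152 and 149 in carcass (log2 difference -1.99, SE 0.11, adjusted p = 3.41e-06), against 1824 and 1716 FPKM in the ovary libraries. Trx-2, the general form, was at 7.63 and 7.77 FPKM in embryo and 172 and 183 in carcass (log2 difference -4.36). TrxT, the testis form, was higher in embryo, at 1.97 and 3.42 FPKM in embryo and 0 and 0.807 in carcass (log2 difference 1.43, SE 0.49, adjusted p = 0.0299), and lost the call without carcass replicate 1, at 1.00, or embryo replicate 2, at 1.14.

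**Figure D5:**
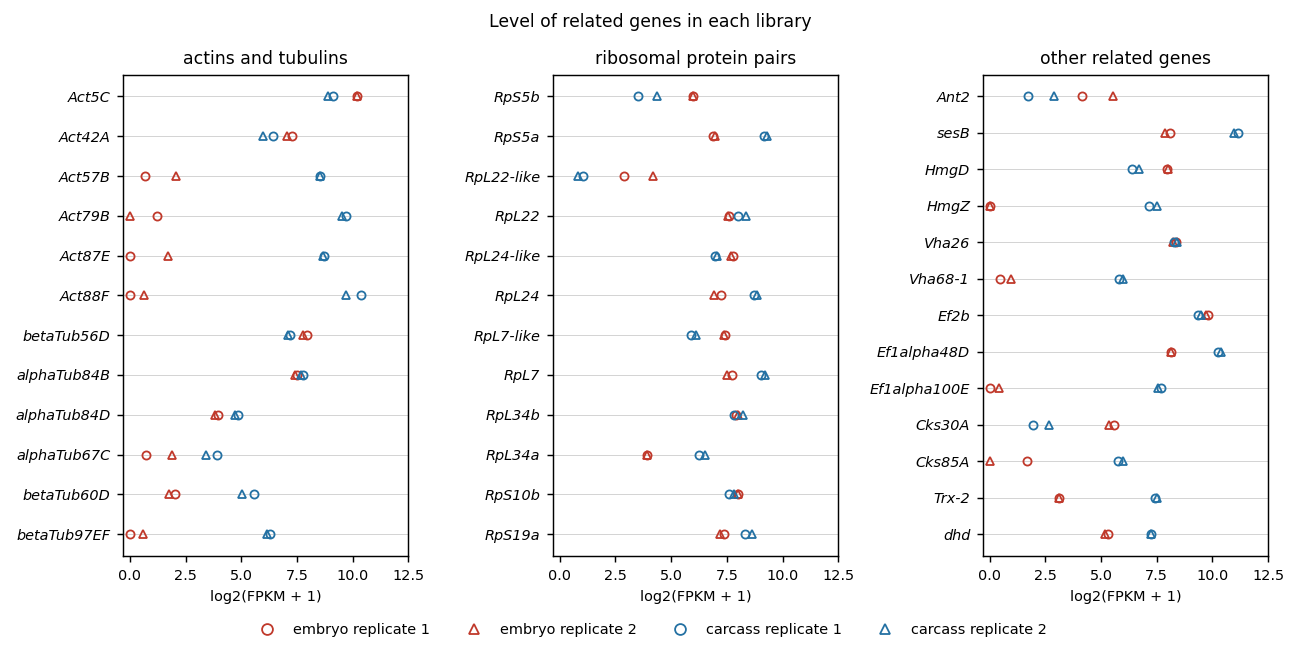
Level of related genes in each of the 4 libraries as log2(FPKM + 1): actins and tubulins, ribosomal protein pairs and other pairs, circles for replicate 1 and triangles for replicate 2. The cytoplasmic actins, RpS5b, RpL22-like and Ant2 lay higher in both embryo libraries, and the muscle actins, RpS5a and sesB lower, under both scalings.

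Eggshell genes, made by the follicle cells around the egg, were lower in embryo or not called. Of 20, 13 were lower and 0 higher as deposited, 6 were lower and 0 higher after quantile normalization, and 8 were listed at 0 in both embryo libraries. The share lower after quantile normalization was near the 31.9% of all tested genes. Cp38, a chorion gene, was at 6.13 and 12.0 FPKM in embryo and 264 and 39.1 in carcass (log2 difference -3.42, SE 0.79, adjusted p = 0.00547) and was not called after quantile normalization. dec-1, also of the eggshell, was at 1.21 and 2.78 FPKM in embryo and 33.1 and 43.2 in carcass (log2 difference -3.75, SE 0.25, adjusted p = 8.54e-06). The carcass libraries differed from each other. The chorion genes Cp36, at 155 and 34.7 FPKM in replicates 1 and 2, and Cp38 were higher in replicate 1, while the chorion gene Cp15, at 7.85 and 57.1, and the vitelline membrane gene Vm34Ca, at 4.01 and 122, were higher in replicate 2. Of 22 genes of the ovarian soma, many of which other tissues use too, 6 were higher and 12 lower as deposited, and 8 and 3 after quantile normalization. As deposited these shares were near those of all tested genes, 23.7% higher and 54.1% lower. After quantile normalization the share higher was near the 37.1% of all tested genes. Fas3, an adhesion gene of epithelia, was at 1.93 and 1.67 FPKM in embryo and 64.1 and 58.8 in carcass (log2 difference -4.48). Dl, the Notch ligand Delta, was at 154 and 162 FPKM in embryo and 6.42 and 6.46 in carcass (log2 difference 4.42, SE 0.12, adjusted p = 1.98e-07). tj, a marker of the somatic gonad, was at 0.900 and 0.260 FPKM in embryo and 3.12 and 3.93 in carcass (log2 difference -1.54, SE 0.25, adjusted p = 8.21e-04) and was not called after quantile normalization.

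Among genes outside these lists, 3 had differences in favour of embryo as large as those of the cell cycle. sti (citron kinase, of cytokinesis) was at 271 and 271 FPKM in embryo and 2.03 and 2.38 in carcass (log2 difference 6.41, SE 0.10, adjusted p = 8.16e-08). CG11164 was at 266 and 287 FPKM in embryo and 2.72 and 1.83 in carcass (log2 difference 6.42, SE 0.15, adjusted p = 1.59e-07) and CG4880 at 344 and 321 FPKM in embryo and 3.80 and 4.67 in carcass (log2 difference 6.0, SE 0.14, adjusted p = 1.56e-07). In favour of carcass, CG16826 was at 0 and 0.801 FPKM in embryo and 1056 and 1405 in carcass (log2 difference -9.83, SE 0.35, adjusted p = 5.43e-07) and CG12374 at 0 and 0.614 FPKM in embryo and 771 and 1219.8 in carcass (log2 difference -9.58, SE 0.62, adjusted p = 6.70e-06). The most abundant RNA of both groups was the noncoding snRNA:7SK (its RefSeq name), which restrains transcription, at 28260.3 and 40466 FPKM in embryo and 26278 and 29419 in carcass. Its groups overlapped and it was not called, at 0.28 (SE 0.15, adjusted p = 0.136). It was called higher after median-ratio scaling, at 0.70, and as deposited without embryo replicate 1, at 0.54 (adjusted p = 0.0019). The FPKM of RNAs this short depends strongly on the length term, so their levels were not compared with those of messenger RNAs.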

How the data were processed

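RNA-seq gene values of 2 embryo, 2 carcass, 2 ovary and 2 OSS libraries were used. The values are FPKM deposited by the authors, and the tools named for them, per the submitters' processing notes, were Cufflinks, TopHat, Bowtie and CASAVA 1.3, with the build dm3 and no settings. FPKM are not counts, and the sources used here state no totals, so no count test was run. Blank, OK and dash entries were treated as missing: 1070 lines of carcass replicate 1 (1068 blank and 2 OK) and 5 of carcass replicate 2. The carcass value of 292 tested genes therefore rests on 1 library. Names on more than 1 line (93 names, 255 lines) were left out, and tables were joined by name.

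Genes at 1 FPKM or more in at least 2 of 8 libraries were fitted as log2(FPKM + 1) with limma 3.58.1 in R 4.3.3 (2-sided moderated test with a mean trend, 1 shared spread over the 4 groups, residual df 4, Benjamini-Hochberg adjustment, threshold 0.05). Quantile normalization ran over all 8 libraries, and median-ratio scaling used 7183 genes above 0 in all of them. The procedure was also run on simulated data in which few genes changed and the libraries did not differ in scale. That run therefore cannot speak to the choice of scaling. Tables and plots were made in Python 3.11.15. Alternatives were pseudocounts of 0.1 and 10, no filter, a filter on the 4 compared libraries, those 4 alone, genes with a number in all 4, a replicate block, and leaving out each library.

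Genes were named by size of difference over all genes, by abundance, and within each list by size, by opposition to the list's direction and by a change of direction between scalings; the other named genes were chosen after their values were seen. The members and lists were chosen with earlier results of these data known, and the chaperone and translation factor lists were added after values had been seen.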

Additional observations from a re-analysis of the deposited data

How the results depend on the processing

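The count of called genes, 8929, stayed within 1.5 times under every alternative run, from 6375 to 9048 apart from leaving out libraries, which gave 8677 to 9157. The direction depended on scaling: quantile normalization gave 4265 genes higher and 3661 lower, against 2719 and 6210. The cause of that shift was not tested. Quantile normalization over the 4 compared libraries alone gave 3168 lower, and a fit to genes above 0 in all 4, which tests fewer genes, gave 3793 lower; these alternatives were chosen after seeing the data. Leaving out 1 library at a time gave 2542 to 2930 higher and 5747 to 6615 lower, with the lone library assumed to vary like the other groups. With the replicate number as a block, 8861 genes were called, 2688 higher and 6173 lower; the numbers do not pair the samples (correlation of same-numbered deviations 0.0225 between carcass and embryo), and the block ended the call of 2 named genes, Prosbeta2 and gammaTub37C. Among named genes with a difference, calls were also lost by 13 in the fit to the 4 compared libraries alone and by 7 under median-ratio scaling. Further calls were lost by 5 with a pseudocount of 0.1, by 2 without the filter and by 1 with a pseudocount of 10. Median-ratio scaling added calls for 5 of the same sign and also called Vha26, whose sign it changed. Of the named genes with a difference, 22 had another sign after quantile normalization; the first value is over all 8 libraries, the second over 4: alphaTub67C (0.01, 0.01), Caf1-105 (2.08, 1.24), cdc2c (1.62, 0.99), cid (1.8, 1.67), exu (0.62, 0.53), gammaTub37C (2.22, 1.59), gcl (0.59, 0.67), gnu (0.83, 0.40), grk (0.71, 0.82), Hsc70Cb (-0.02, -0.02), Mcm3 (2.31, 2.05), Med (1.39, 0.86), mus209 (2.01, 1.38), Ndc80 (1.29, 1.46), nos (1.29, 0.91), Nup107 (0.95, 0.53), Prosbeta2 (-0.03, -0.03), Prosbeta3 (-0.03, -0.04), RPA2 (2.30, 1.37), tj (0.60, 0.38), Tm1 (0.67, 0.64) and Vha26 (0.30, 0.30). Under median-ratio scaling Vha26 stood at 0.40. Unknown read totals limit what can be said of genes at low FPKM.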

Other observations

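Nuclear genes of the mitochondrial ribosome, outside the lists of the report and chosen after their values were seen, were mostly lower in embryo as deposited and less so after quantile normalization. Of 72 tested, 56 were lower in embryo and 6 higher as deposited, and 27 were lower and 14 higher after quantile normalization, where 31.9% of all tested genes were lower and 37.1% higher, with a median difference of -2.22 as deposited. They summed to 1378 and 1380.0 FPKM in embryo and to 2101 and 2725 in carcass. Of 6 tested genes with histone names, 3 were higher in embryo and 1 lower as deposited, at sums of 2062 and 1974 FPKM in embryo and 719 and 868 in carcass.

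Of the 2719 genes higher in embryo, 2594 (95.4%) were at 1 FPKM or more in both ovary libraries, against 69.7% of all tested genes and 67.0% of the genes lower in embryo, and 102 were under 1 FPKM in both. Among the latter, chosen after their values were seen, CG12672 was at 19.2 and 48.9 FPKM in embryo and 2.69 and 5.24 in carcass (log2 difference 2.73, SE 0.48, adjusted p = 0.00134), and zen2, a homeobox gene of the Hox complex, was at 1.21 and 4.19 FPKM in embryo and 0 and 0.494 in carcass (log2 difference 1.47, SE 0.46, adjusted p = 0.0222), a call that was lost without carcass replicate 1, at 1.18, or embryo replicate 2, at 0.85.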
